A study of Mus musculus with 4 samples.

Results

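The Hist1 cluster is the main array of replication-dependent histone genes of the mouse, and the LSD1 peaks within it at 2 days of muscle cell differentiation are described here. The members were selected on position alone, as the peaks of the deposited lists whose midpoint lay in either of 2 windows of chromosome 13 in the mm9 build, from 21780000 to 22150000 (370 kb, the first window) and from 23520000 to 23880000 (360 kb, the second window). They numbered 81 of 44039 peaks at day 2 (35 in the first window and 46 in the second) and 57 of 17446 at day 5 (22 and 35). The windows themselves were chosen by the number of day 5 peaks, because the second holds 100 kb with 17 day 5 peaks, the most in the genome, a number reached by 1 other window on chromosome 15. The number of day 5 peaks, and what depends on it, is therefore a description and was not tested.

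The cells were C2C12, an established line of mouse myoblasts, whose cells stop dividing and fuse into myotubes once serum is lowered. They were grown in medium with 25 mM glucose and 10% fetal serum and then kept in 2% horse serum for 48 h (day 2, called differentiating by the submitters) or 120 h (day 5, called differentiated). Chromatin was precipitated with an antibody against LSD1, and an input was sequenced at each day, giving 4 groups of 1 library. No treatment or genotype distinguished the groups apart from the day, and no untreated myoblast sample or second clone was analysed here.

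Replication-dependent histone genes supply the core histones H2A, H2B, H3 and H4 and the linker histone H1 that package newly made DNA. They are transcribed mainly in S phase, have no introns, and end in a stem-loop in place of a poly(A) tail. LSD1, encoded by Kdm1a, removes methyl groups from lysine 4 of histone H3 and works with CoREST and histone deacetylases. Differentiating myoblasts leave the cell cycle, which is the state in which these genes are normally turned down.

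The peak lists carry no gene names and no mm9 annotation was used here, so the name of the cluster rests on the position of the windows and no peak was placed on a gene. A RefSeq gene table of another build, GRCm38.p6, gives the names and order of the genes. It lists 55 Hist1 genes in the cluster, 54 of them protein coding and 1 a pseudogene (H2ac14, formerly Hist1h2aj). In chromosome order they fall into a run of 24 genes from H2bc13 to H2bc11 and a run of 31 genes from H4c8 to H2ac1, separated by 147 other genes. By class the cluster holds 6 H1, 14 H2A, 15 H2B, 9 H3 and 11 H4 genes. All but 1 of the H1 genes and 7 of the 9 H3 genes are in the later run. Genes of other kinds lie among the histone genes: 31 tRNA genes and the protein-coding Zfp184, Pom121l2 and Prss16 in the earlier run, and Hfe (an iron regulator), Trim38 and 4 Slc17a transporter genes in the later one. The 147 genes between the runs include 75 vomeronasal receptor (Vmn1r) genes and pseudogenes and 46 tRNA genes. Of these tRNA genes, 14 stood directly before H4c8, with only long non-coding RNA genes allowed between them.

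Promoters of the first gene of each class in chromosome order are printed to show what the copies in this cluster have in common and where they differ. Each line gives the 150 bases before the start of the gene, 5′ to 3′ on the gene's strand, from RefSeq (GRCm38.p6). Capitals mark 3 motifs on either strand: the TATA box, searched as TATAAA; the CCAAT box; and the octamer known from H2B promoters, searched as ATTTGCAT. H1f5 is read from the minus strand, H2ac13 from the plus, H2bc13 from the minus, and H3c10 and H4c11 from the plus.
H1f5: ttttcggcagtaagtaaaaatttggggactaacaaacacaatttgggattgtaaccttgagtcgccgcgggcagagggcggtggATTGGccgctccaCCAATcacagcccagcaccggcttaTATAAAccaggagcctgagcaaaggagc
H2ac13: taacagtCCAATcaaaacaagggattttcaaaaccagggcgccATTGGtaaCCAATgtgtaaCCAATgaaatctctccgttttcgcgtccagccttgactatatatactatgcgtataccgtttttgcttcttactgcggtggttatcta
H2bc13: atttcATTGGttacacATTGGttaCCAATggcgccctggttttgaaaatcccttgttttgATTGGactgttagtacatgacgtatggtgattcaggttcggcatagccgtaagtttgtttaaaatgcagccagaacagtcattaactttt
H3c10: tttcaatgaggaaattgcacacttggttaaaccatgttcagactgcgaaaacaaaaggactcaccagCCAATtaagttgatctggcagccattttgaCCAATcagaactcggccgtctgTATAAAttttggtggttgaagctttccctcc
H4c11: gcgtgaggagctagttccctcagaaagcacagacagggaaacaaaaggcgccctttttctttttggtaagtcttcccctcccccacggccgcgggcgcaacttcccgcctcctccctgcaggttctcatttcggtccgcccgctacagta

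In these 5 stretches the H1, H2A, H2B and H3 promoters held a CCAAT box, the H1 and H3 promoters also a TATA box, and the H4 promoter none of the 3 motifs. H2ac13 and H2bc13 are neighbours read from opposite strands, and the first part of each printed stretch is the reverse complement of the other's. Their CCAAT boxes are the same bases, printed and counted in both. The counts that follow are of promoters, not of separate boxes, and how many other neighbours share bases was not analysed. Over the whole promoter entries (250 bases before to 50 after the start), 51 of the 55 genes had a sequence. The CCAAT box was found in 43 of them (84.3%, against 37.4% of all 32851 promoter entries). By class it was in all 6 H1, all 13 H2A, all 14 H2B and all 7 H3 promoters with an entry, and in 3 of 11 H4 promoters. The TATA box was in 31 (60.8%, against 13.6%) and the octamer in 11 (21.6%, against 1.74%), 6 of them H2B and 5 H2A. These matches describe the letters and place no factor there. Of all words of 36 bases in the histone promoters, 11.8% also occurred at another place among the promoters of the table, against 4.62% of words in all promoters, and 10 of the 51 histone promoters (19.6%) held such a word, against 10.3% of all promoters. A read no longer than such a word cannot be placed by its sequence alone. Read lengths were not analysed here, and how this bears on the peaks was not tested.

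LSD1 peaks stood close together in the cluster at both days. The windows held 111 peaks per Mb at day 2, against 15.5 on the rest of chromosome 13, and 78.1 per Mb at day 5, against 5.42. These are 7.15 and 14.4 times the density of the rest of the chromosome. Of the 730 kb of both windows, peaks covered 65.7 kb at day 2 and 20.4 kb at day 5. The 1.37 Mb between the windows held 11 day 2 and 5 day 5 peaks and the 1 Mb after the second 10 and 5. The 1 Mb before the first window held 20 and 10, more per Mb than the rest of the chromosome. The number of peaks in the cluster was 1.42 times as large at day 2 as at day 5, against 2.53 times in the rest of the lists. Read totals were not analysed here, so differences in peak number between days cannot be told apart from depth. Each day is a single library, so nothing that differs between the days has a spread over replicates beside it, and no test was made.

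**Figure D1:**
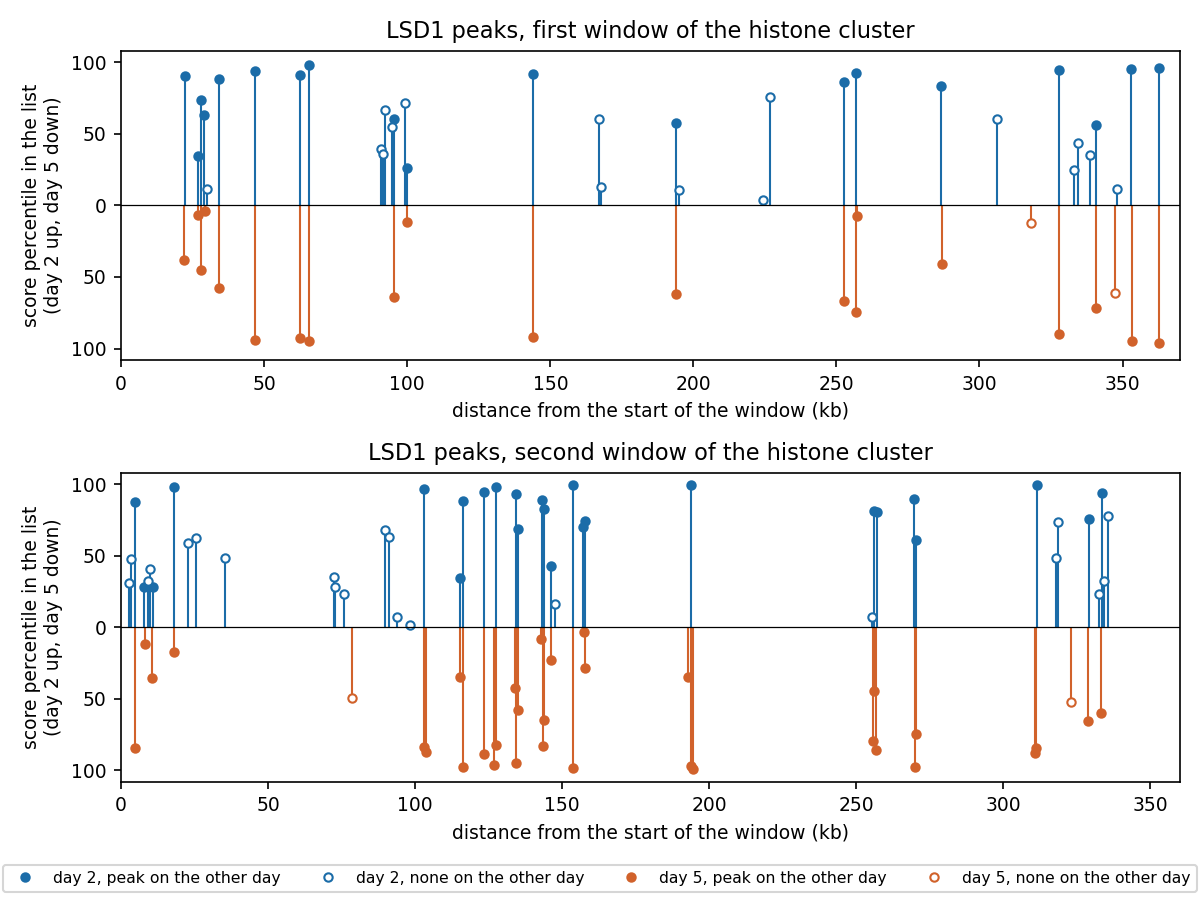
Position of every LSD1 peak in the first and second windows (x axis, distance from the start of the window in kb) against its score percentile within its own list (y axis, day 2 upward and day 5 downward). Filled points overlap a peak of the other day by at least 1 bp and open points do not: 44 of 81 day 2 peaks and 53 of 57 day 5 peaks are filled, and the peaks stand in groups with long empty stretches between them.

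The peaks were grouped within the windows rather than spread evenly. Neighbouring midpoints in the cluster were a median of 3622 bp apart at day 2 (2311 to 4542, the 95% interval) and, at day 5, 4872 bp (3274 to 8036), against 13606 and 33722 bp elsewhere. Of the day 2 distances, 29 of 79 (36.7%) were under 1 kb from edge to edge, against 13.2% elsewhere. At day 5 it was 15 of 55 (27.3%, against 12.7%), and 14 of these 15 were in the second window. The first window was the sparser, with day 5 midpoints a median of 9544 bp apart against 3450 bp in the second. Cut into bins of 10 kb, 20 of 37 bins of the first window and 16 of 36 of the second had no day 2 peak. The comparison with elsewhere does not separate grouping from density, and no random spread of the same peak number was set beside it.

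The longest empty stretch of the second window was nearly the same on both days. It ran from 23714752 to 23775177 at day 2 (60.4 kb) and from 23714525 to 23775641 at day 5 (61.1 kb). A day 5 stretch of almost that length, from 23538183 to 23598321 (60.1 kb), held 6 day 2 peaks. In the first window the longest was from 21880120 to 21923912 at day 2 (43.8 kb) and from 21973965 to 22032671 at day 5 (58.7 kb). The fullest 10 kb bins differed by day. At day 2 they began at 21870001 (7 peaks) and 23520001 (6 peaks), and at day 5 at 21800001 and 23660001 (4 peaks each). Runs of peaks less than 1 kb apart held 17 of 35 day 2 peaks in the first window and 32 of 46 in the second, and the longest had 4 peaks. They ran from 21806669 to 21810091 in the first window, and from 23527550 to 23530909 and from 23852364 to 23856113 in the second.

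Distances were also set beside those of peaks elsewhere of the same score. For each member the 200 peaks outside the windows nearest in score rank were taken. The distance from a day 2 member to its nearest neighbour was a median of 1132 bp, and the median ratio to the matched peaks was 0.211 (95% interval 0.155 to 0.315), with 72 of 81 members closer than their matched median. At day 5 the ratio was 0.188 and 51 of 57 were closer, given as a description because crowded day 5 peaks chose the windows. When matched only to peaks in 100 kb windows with at least 10 peaks of the same list, the ratio was 0.498 at day 2 and 0.895 at day 5. These places were at least as dense as most of the cluster at day 5, where 2 of its 100 kb windows held 10 or more day 5 peaks.

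Scores of cluster peaks lay in the upper part of both lists. The score was given by the authors' peak caller, and only its order within a list is used. At day 2 the median percentile was 62.8 (quartiles 34.7 and 88.4), and for day 5 it was 65.2 (38.0 and 88.9), where the whole list has its median at 50. The top decile of the list held 18 of 81 day 2 members (22.2%) and 14 of 57 day 5 members (24.6%), against 9.98% and 9.95% of peaks elsewhere. Members below the list median numbered 31 at day 2, so the cluster combined strong and weak peaks. Scores ran from 50.7 to 1026 at day 2 and from 51.0 to 351 at day 5.

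The strongest sites were in the second window. At day 2 these were 23712501 to 23714751 (score 1026, place 159 of the list, 2251 bp and the widest of the cluster), 23830297 to 23832360 (score 970, place 194) and 23673050 to 23674470 (score 820, place 354). The strongest day 5 peaks were 23714166 to 23714524 (score 351, place 170), which lies in the first of those day 2 peaks, then 23673062 to 23673940 (score 287, place 328, the widest day 5 peak of the cluster at 879 bp), which lies in the third. The next was 23636245 to 23636540 (score 273, place 378), inside a day 2 peak of percentile 88.0. In the first window the same 3 sites led on both days. They were 21844874 to 21846320 (day 2 score 609, day 5 score 200), 22142123 to 22143527 (498 and 230) and 22132397 to 22133485 (455 and 199). The widest day 2 peak of the first window was 21825863 to 21827572 (1710 bp).

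Taken over both windows, cluster peaks were somewhat narrower than peaks of the same score. They had a median width of 681 bp for day 2 (614 to 779) and 303 bp for day 5 (255 to 359), close to the medians of 663 and 331 bp in the rest of the lists. Since the members scored higher than the lists at large, matching by score changed the comparison. The median ratio of a member's width to the median of its matched peaks came to 0.915 for day 2 (0.845 to 0.987) and 0.887 for day 5 (0.737 to 0.982). Members wider than their matched median were 30 of 81 (37.0%) and 18 of 57 (31.6%). By window, the interval of the ratio was below 1 only in the second at day 2 (0.910, 0.823 to 0.987). It held 1 in the first window at day 2 (0.952, 0.813 to 1.11) and day 5 (0.807, 0.644 to 1.02) and in the second at day 5 (0.937, 0.843 to 1.01). Part of the day 2 peaks stood a few bases apart: the smallest gap between neighbours was 3 bp, and merging peaks less than 1 kb apart gave 52 day 2 regions with a median width of 1256 bp.

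**Figure D2:**
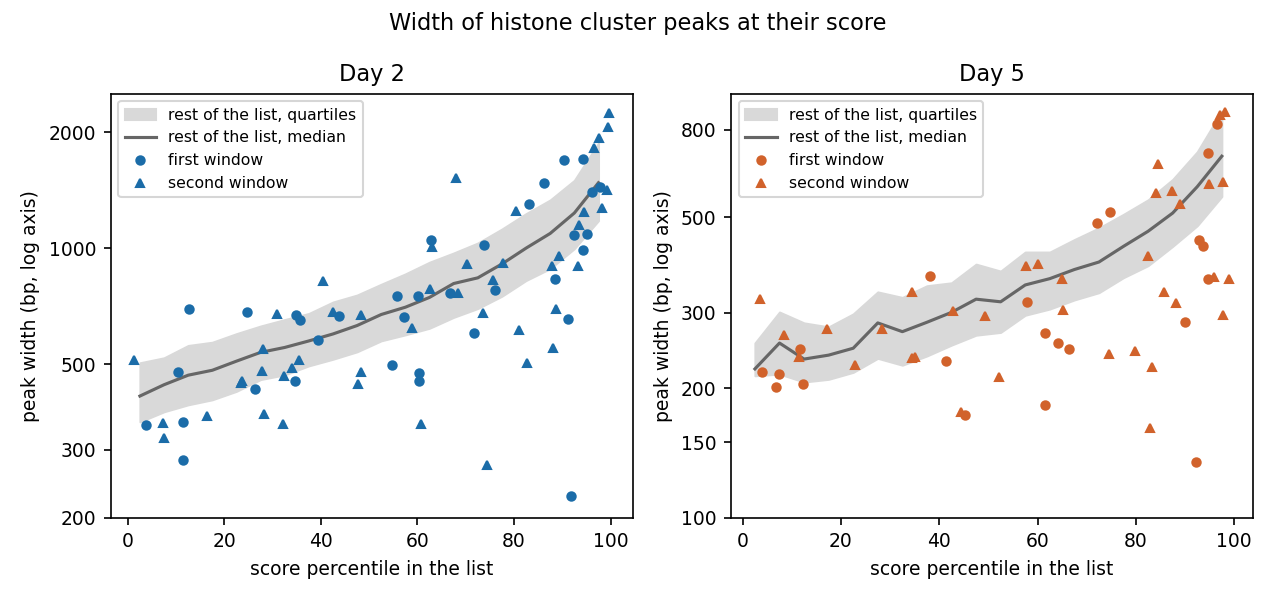
Width of each cluster peak (y axis, bp, log scale) against its score percentile within its list (x axis) at day 2 and day 5, with points for the first window and triangles for the second; the line and band are the median and quartiles of peaks outside the windows in bins of score. More points lie below the line than above it, and the lowest point at high score is the same site on both days, with widths of 228 and 135 bp.

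A day 2 peak is called kept where at least 1 bp of it is in a day 5 peak, and 44 of the 81 cluster peaks were kept (54.3%, 43.5 to 64.7 by Wilson's method). Over the whole day 2 list 30.4% were kept. The share was alike in both windows, 19 of 35 (54.3%) and 25 of 46 (54.3%). The score-matched peaks gave 32.6 kept of 81 (40.3%), above the share of the whole list and 14.0 percentage points less than observed. Being kept needs a day 5 peak, and the number of day 5 peaks chose the windows, so this difference is a description and no support. The matched number was 13.8 in the first window, where 19 were kept, and 18.8 in the second, where 25 were kept. Within either window alone the interval (38.2 to 69.5 and 40.2 to 67.8) held the matched share (39.4% and 40.9%). Without the 100 kb from 23600001 to 23700000 on which the choice of windows rested, 31 of 63 were kept (49.2%, 37.3 to 61.2) and the matched peaks gave 23.9 (37.9%), a share within that interval. Intervals cover counting error only and treat neighbouring peaks as independent, which they are not.

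Which cluster peaks were kept followed the score. All 18 members in the top decile of day 2 scores were kept (100%, 82.4 to 100), against 85.8% of top-decile peaks elsewhere. All 10 in the decile below were kept too (72.2 to 100), against 60.7% elsewhere. Between the median and the top decile it was 20 of 32 (62.5%, 45.3 to 77.1, against 40.3%), and up to the median 6 of 31 (19.4%, 9.19 to 36.3, against 11.4%). Grouping the highest 2 deciles, 28 of 28 cluster peaks and 73.3% of the others were kept. This grouping was chosen after the values were seen. The interval of the top decile held the 85.8% elsewhere, and that of the group up to the median held the 11.4%. Being kept needs a day 5 peak, and day 5 peaks chose the windows, so all these differences are a description and no support.

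**Figure D3:**
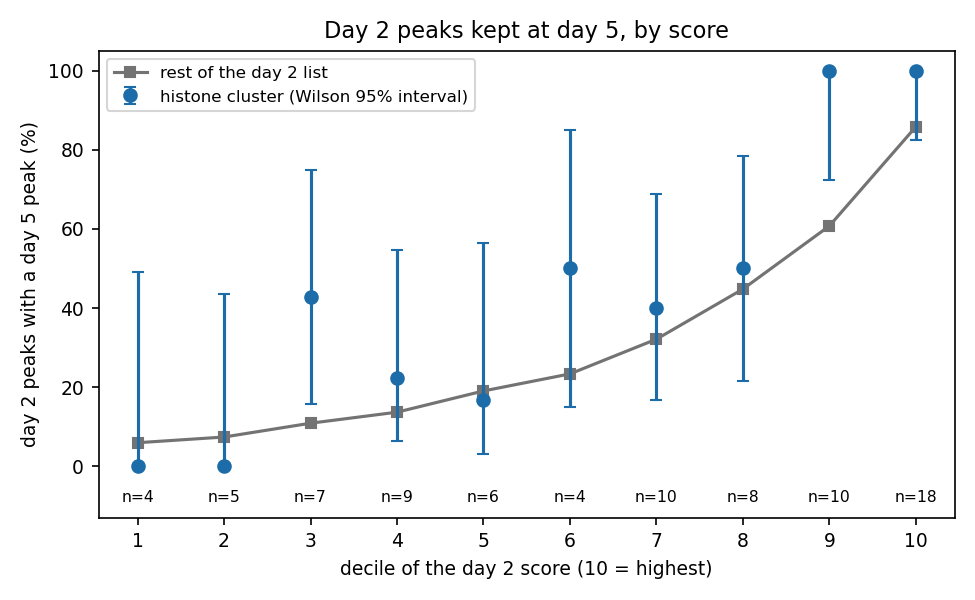
Share of day 2 peaks with a day 5 peak (y axis, %) by decile of the day 2 score (x axis, 10 the highest), for the histone cluster (points with Wilson 95% intervals, number of peaks below) and the rest of the day 2 list (squares). All 28 cluster peaks of deciles 9 and 10 had a day 5 peak, and the intervals of the lower deciles are wide because each holds 4 to 10 peaks.

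Kept shares varied along the cluster. From 23600001 to 23700000, 13 of 18 day 2 peaks were kept where the matched peaks gave 8.75, and from 23700001 to 23800000, 5 of 6 were kept against 2.97. The former stretch was chosen for its many day 5 peaks, which being kept needs, so its share is a description only. In the part of the second window up to 23600000 only 4 of 14 were kept, near the matched 3.53, and the median percentile there was 37.9. Beyond 23800000 it was 3 of 8 against 3.59. The fullest part of the first window, from 21800001 to 21900000, kept 10 of 16 against 6.38. The other 3 parts of that window kept 2 of 5, 3 of 6 and 4 of 8, against 1.46, 2.66 and 3.31. In each of these parts the numbers are small, and none of the differences was tested.

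The strongest members without a day 5 peak had moderate scores. They were 23855199 to 23856113 (score 205, percentile 77.8), 22006253 to 22007031 (194, 76.0), 23838151 to 23838831 (181, 73.6), 21878972 to 21879576 (172, 71.7) and 23608833 to 23610358 (157, 68.0). The last was 1526 bp wide and was among 10 successive day 2 peaks, from 23542289 to 23618625, none of which was kept. Peaks elsewhere of the same scores were also mostly not kept, with kept shares of 0.05 to 0.385. This run was picked as the longest of its kind in the second window, and it was not tested.

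Nearly all day 5 peaks of the cluster lay on a day 2 peak. This held for 53 of 57 (93.0%, 83.3 to 97.2), against 86.1% of the whole day 5 list and 51.5 of 57 (90.3%) among score-matched day 5 peaks. The interval held both of these shares, so the cluster was not set apart by it. The day 5 peaks without one were 22098007 to 22098211 (score 53.2), 22127347 to 22127529 (83.4), 23598322 to 23598615 (71.8) and 23842870 to 23843082 (74.3). They were 183 to 294 bp wide, and the second lay 480 bp from the nearest day 2 peak while the others lay 2168 to 9082 bp away.

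Several day 2 peaks of the second window held more than 1 day 5 peak. Among kept members this was 8 of 44 (18.2%, 9.51 to 32.0), against 11.3% of all kept peaks, and 7 of the 8 were in the second window. The interval held the share of all kept peaks, and day 5 peaks chose the windows, so the share is a description only. By score, 5.23 of the 81 members would hold several, with 32.6 kept. The peak at 23712501 to 23714751 held 3, of scores 62.5, 247 and 351, and that at 23830297 to 23832360 held 2, of scores 144 and 127. In the other 6, beginning at 22036365, 23621964, 23646733, 23653749, 23662750 and 23775616, the number was 2. At 23662750 the members of the pair differed most in place, at percentiles 8.33 and 82.9 of the day 5 list. Together the 44 kept peaks met 53 day 5 peaks, and the 32.6 kept by score met 38.6. The difference between these totals goes with the number kept and is no further result.

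Within a shared site the day 5 peak sat inside the day 2 peak much as elsewhere. The 53 pairs had a median ratio of day 2 to day 5 width of 2.62 (2.10 to 3.17), against 2.59 in the 15020 pairs elsewhere. The day 5 peak lay wholly inside in 47 pairs (88.7%, against 88.4%), and midpoints were a median of 140.5 bp apart (against 123 bp). In all 20 pairs of the first window it lay inside. The 6 exceptions, all in the second window, passed the edge by 5 to 219 bp.

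Score places of kept sites were related between the days but not fixed. Across the 53 pairs Spearman's rho of the 2 percentiles was 0.60, against 0.42 in pairs elsewhere, as a description of peaks that share their libraries. It was 0.71 in the 20 pairs of the first window and 0.55 in the 33 of the second. The pairs come from 44 day 2 peaks, some entered more than once, and the pairs elsewhere were not matched by score. The strongest day 5 partner of a kept member had a median percentile of 73.3, and kept peaks elsewhere of the same day 2 score had 66.4. The median of the differences was 6.15 points (−1.93 to 16.5), with 28 of 44 above the matched value, so the interval of the difference held 0. Single sites went far from their match, and the 4 named next were picked for their values. The day 2 peak at 23537092 to 23539021 was at percentile 97.7 and its only day 5 peak at 17.2 (score 54.5). At 21801522 to 21803222 the percentiles were 90.5 and 38.0. The opposite was seen at 23636021 to 23636572, at 88.0 and 97.8, and at 23789192 to 23790145, at 89.4 and 97.8.

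**Figure D4:**
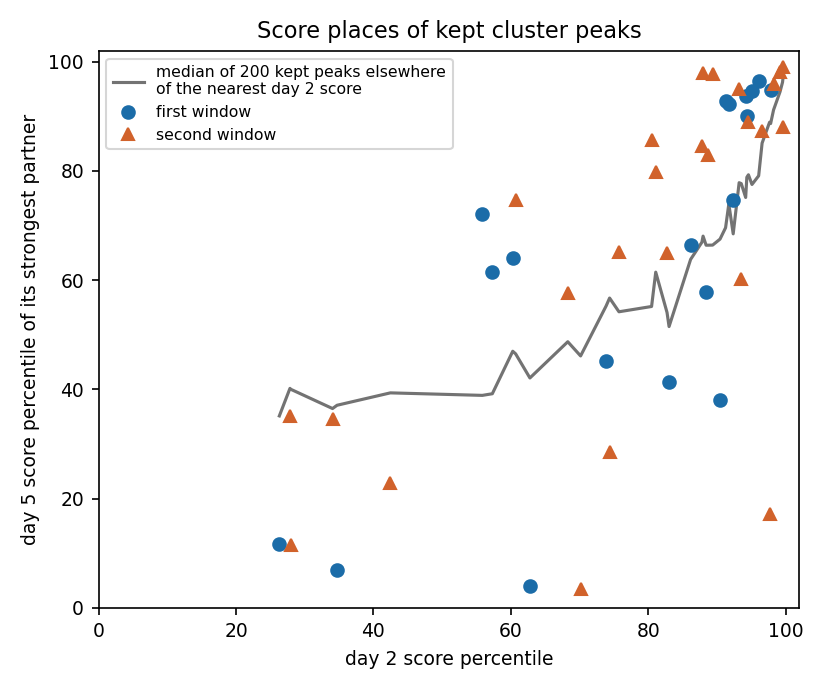
Day 5 score percentile of the strongest overlapping peak (y axis) against the day 2 score percentile (x axis) for the 44 kept cluster peaks (circles first window, triangles second), with a line for the median of the 200 kept peaks elsewhere nearest in day 2 score. Of the 44 points, 28 lie above the line, and the low point at the right is the site beginning at 23537092.

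Other crowded places give a scale for these values. The 100 kb windows with the most day 5 peaks besides that of the cluster (17 day 5 and 18 day 2 peaks) were 78600001 to 78700000 on chromosome 15 (17 and 22), 86700001 to 86800000 on chromosome 8 (16 and 15), and 137500001 to 137600000 on chromosome 1 (15 and 27). On chromosome 15, 11 day 2 peaks were kept where score gave 10.7. On chromosome 8 it was 9 of 15 against 6.75, and on chromosome 1 it was 11 of 27 against 7.38. Peaks in all 100 kb windows elsewhere with at least 10 day 2 peaks were kept in 32.2% of cases. Matched by score to these dense places alone, 33.1 of 81 cluster peaks would be kept, close to the 32.6 from the whole list.

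The limits of the windows fell mostly in empty sequence. Before the first window the last day 2 peak had its midpoint 157 kb outside and the first one inside lay 22.4 kb from the limit. After the second window these distances were 203 and 24.3 kb. At the upper limit of the first window the last day 2 peak inside, 22142123 to 22143527, lay 7.18 kb from the limit, and the next outside 1201 kb. Nearest to a limit was the lower end of the second window: the day 2 peak at 23518284 to 23519303 (score 82.8, with 2 day 5 peaks) lay 1.21 kb outside, and the first one inside, 23522484 to 23523160 (score 74.8, no day 5 peak), 2.82 kb within. For day 5 these were 23518875 to 23519184 (score 88.0), 0.971 kb outside, and 23524444 to 23525108 (score 129), 4.78 kb within.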

How the data were processed

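LSD1 precipitates and inputs were sequenced at day 2 and day 5, 1 library per group, and groups were taken from the sample titles. The authors deposited 1 peak list per LSD1 library, called with MACS in Galaxy per the file headers, and mm9, deepTools and Bowtie2 are named in the submitters' processing notes. The peak score was deposited as the caller gave it, on a scale that is not stated, and was used within a list. The sources used here do not state the MACS version, its cutoff or whether the input was its control, and read depth is unknown. Positions are counted from 1.

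Members were chosen by midpoint, and the members, windows and lists were chosen with earlier results of these data known. An overlap of 1 bp or more made peaks shared. Intervals are at 95%, by Wilson's method for shares and from binomial order statistics for medians. Each member was compared with the 200 peaks outside the windows nearest in score rank, as a fixed calculation without random draws. It was also run on simulated day 5 lists made from the real day 2 positions. The group compared there was day 2 peaks drawn at random, which copies neither the crowding of the cluster nor the choice of windows. Named peaks were the 3 of highest score and the widest per list and window, the day 5 peaks without a day 2 peak, the 5 strongest day 2 peaks without a day 5 peak, those with several day 5 peaks, and those at the window limits. Promoters were searched on both strands for 3 motifs, which the report spells out. Alternatives covered the overlap, score limit, list length, window limits, merging and matching. Scripts ran under Python 3.11.15 with pandas 2.3.3, NumPy 2.4.6, Matplotlib 3.10.9 and SciPy 1.17.1.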

Additional observations from a re-analysis of the deposited data

How the results depend on the processing

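Of 103 alternatives for 17 values, 29 moved beyond the interval of the value (for numbers and covered lengths, beyond 1.5 times it), 74 did not, and 0 reversed. A reversal could be recorded only for the score-matched difference and the ratios of width and distance. Shares, numbers, widths, covered lengths, ranks and spacings have no direction to reverse. The excess of kept day 2 peaks over score-matched peaks was 14.0 percentage points and stayed within its interval in all 9 alternatives, 3 of which (merging and each window alone) were chosen after seeing the data. With overlap of at least 50% of both peaks, 17.3% of day 2 and 24.6% of day 5 members were shared. A day 5 peak less than 50% as wide as its day 2 peak cannot pass this setting. How much of the drop comes from such pairs was not tested. A distance of up to 1 kb gave 67.9% of day 2 members. For equal list lengths only the day 2 list was cut, to its 17446 highest scores. Of the day 2 members left in it 81.4% were kept, a share of strong peaks and not of all 81. Of all day 5 members 77.2% met a peak of the cut list. For these settings and the 50% overlap no share of the whole lists was calculated, so none is set beside them. Merging peaks less than 1 kb apart, chosen after seeing the data, gave 67.3% at day 2, against 53.0% among score-matched merged peaks. Merging also gave 52 day 2 peaks, median widths of 1256 and 362.5 bp and spacings of 7328 and 8369 bp. Scores at or above the list medians left 50 and 37 peaks, with median widths of 906 and 360 bp. Windows narrowed by 50 kb on each side held 47 and 37 peaks covering 36.7 and 13.3 kb. The first window alone held 35 and 22 peaks (28.0 and 7.31 kb) and the second alone 46 and 35 (37.6 and 13.1 kb). Matched within dense 100 kb windows, the ratio of nearest distances was 0.498 at day 2 and 0.895 at day 5. Fewer peaks in smaller windows or above a limit follow by construction; for the rest, the cause was not tested. No paired analysis was possible because each group holds 1 library, and for the same reason no replicate could be left out.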

Other observations

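The narrowest day 2 peak of the cluster was at the same time a strong one, which was noticed after the values were seen. It ran from 21923913 to 21924140, 228 bp with a score of 364 (percentile 91.7), and its nearest day 2 neighbour was 23122 bp away. It was the narrowest of the 4404 peaks in the top decile of the day 2 list, whose median width was 1345 bp. Its day 5 peak, 21923957 to 21924091, was 135 bp wide at percentile 92.2, again the narrowest of the 1745 in the top decile of its list (median 637 bp). Whether reads can be placed uniquely at this site was not analysed.

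Among the 691 windows of 100 kb with at least 10 day 2 peaks, the kept share minus the score-matched share had a median of −0.55 percentage points (quartiles −9.16 and 8.03). The histone windows were chosen on day 5 peaks, on which being kept depends, so their places are a description only. The cluster's window from 23600001 to 23700000 was at place 21 (23.6 points), that from 21800001 to 21900000 at place 26 (22.7 points) and that from 23500001 to 23600000 at place 204 (5.97 points). The latter counts 2 peaks just outside the second window.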
